A study of Mus musculus with 12 samples.

Results

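Voltage-gated sodium and calcium channels let neurons fire and release transmitter, and their messenger RNAs were followed here in mouse hippocampus. The members were the genes named Scn with a number and the letter a or b, Cacna1, Cacna2d, or Cacnb with a number, and listed in all 4 deposited tables. There were 29 such genes among 14360 listed in all 4 tables: 8 sodium channel pore genes, 4 sodium channel beta genes, 9 calcium channel pore genes, 4 alpha2delta genes and 4 calcium channel beta genes. Scn4a and Scn10a, the sodium channel pores of skeletal muscle and of sensory neurons, match by name but are absent from the day 6 synapse table and were not members. Every library came from hippocampus of C57BL6/J mice, with no allele or agent named. The groups were SYN L and SYN C (a synapse fraction with a single L and a single C library for days 1, 6 and 20) and HOM L and HOM C (whole homogenate, 3 libraries per arm on day 6). The table headers give L as learned or training and C as control. The sources used here do not give the animals' age, the task or the preparation of the fraction. They also do not say that replicate libraries are different animals, so a p-value here speaks of the scatter between libraries, which may be technical.

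A sodium channel has 1 large pore subunit, which crosses the membrane many times, and smaller beta subunits that cross it a single time. A calcium channel has a pore subunit, an alpha2delta subunit anchored on the outer face of the membrane, and a beta subunit that lies in the cytoplasm and binds the pore from inside. In the hippocampus sodium channels are concentrated at the axon initial segment, where spikes begin, and calcium channels at release sites, on dendrites and in spines.

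The deposited values are read counts per gene. Totals ran from 9.10e+06 to 1.595e+07 counts per library. Levels are in CPM (counts scaled to the library total), and 0 counts in a library limits a gene to 3 counts, which is 0.188 to 0.330 CPM for counting error only. The 2 SYN day 6 libraries stood apart from the other 10: their TMM scaling factors (edgeR's correction of the library total) were 0.713 (L) and 0.656 (C), against 0.973 to 1.18. Day 6 columns alone are named Input, so among SYN libraries day and naming cannot be told apart, and each fraction was deposited in tables of its own. HOM L replicate 1 held liver transcripts: Alb, Apoa1 and Serpina3k, none of them at 0, summed to 1947 CPM, against 0 to 0.168 CPM in the other homogenates (2 or 3 of the 3 at 0) and 32.5 (L) and 149 (C) CPM in SYN day 6. The liver list also held Ttr, which marks choroid plexus as well and is left out of these sums. In bulk libraries a change in the cells present and a change in RNA per cell cannot be told apart.

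Of the 29 genes, 27 had enough counts to be tested. Cacna1s, the skeletal muscle calcium channel pore, reached at most 1.18 CPM in any library, and Scn11a, a sensory neuron pore, at most 0.655 CPM. The windows of 250 bases before the transcription start of a pair of members are shown because these genes had nearly the same difference between SYN day 6 and HOM (log2 2.58 for Scn2a1 and 2.59 for Cacna2d1) while their start regions differ in composition. Scn2a1 (RefSeq symbol Scn2a, plus strand, chr2:65620519-65620768) has 29.6% G and C and 2 CpG pairs, and Cacna2d1 (plus strand, chr5:15934441-15934690) has 82.4% and 36. Coordinates and sequences are those of RefSeq on GRCm38.p6, 5′ to 3′, and capitals mark each CG pair.
Scn2a1: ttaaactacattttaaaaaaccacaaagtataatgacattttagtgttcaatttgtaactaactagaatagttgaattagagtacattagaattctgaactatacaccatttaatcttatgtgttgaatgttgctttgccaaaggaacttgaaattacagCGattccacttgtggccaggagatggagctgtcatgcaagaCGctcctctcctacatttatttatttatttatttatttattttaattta
Cacna2d1: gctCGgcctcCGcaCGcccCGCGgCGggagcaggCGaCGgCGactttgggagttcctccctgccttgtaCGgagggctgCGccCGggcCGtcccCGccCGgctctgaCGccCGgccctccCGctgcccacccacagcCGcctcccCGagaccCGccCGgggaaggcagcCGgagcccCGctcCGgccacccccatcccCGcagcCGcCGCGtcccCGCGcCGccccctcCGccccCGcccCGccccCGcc
Over the 21 members with a RefSeq window, G and C ran from 29.6 to 82.4% (median 62.4, against 52 over all promoters), and 10 of the 21 held 10 or more CG pairs, as did 38.23% of all promoters. The pair shown marks the ends of that range. The part of start region composition in the members' differences was not tested.

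In the 6 homogenates the most abundant members per kb of exon were sodium channel genes. CPM per kb of exon averaged 70.0 ± 3.43 for Scn2b, 70.0 ± 5.70 for Scn2a1 and 63.9 ± 5.55 for Scn3b (SD, n = 6 each), and the ranges of neighbours in this order overlapped. Scn2a1, on chr2:65620771-65767447, encodes the main pore of excitatory neurons and their initial segments. A gap followed, and the next 4 members, which overlapped their neighbours, were Scn8a (43.6 ± 3.56), the pore of the distal initial segment and of nodes, Cacnb4 (41.1 ± 3.04), Cacna2d1 (40.1 ± 2.74) and Cacna1e (40.0 ± 2.22), the R-type calcium channel pore (SD, n = 6 each). Below them, without overlap, came Cacna1a (29.0), the P/Q-type pore of release sites, Scn1a (26.0), a pore prominent in fast-spiking interneurons, Cacnb3 (24.4) and Cacna1b (22.9), the N-type pore. The T-type pores, which open at low voltage, were lower: 12.6 for Cacna1h, 9.08 for Cacna1i and 6.2 for Cacna1g. Scn7a, a sodium-sensing relative found in glia, Scn9a, a pore of sensory neurons, and Cacna2d4 lay between 0.258 and 1.20 CPM per kb. Levels within a run of overlapping ranges were not told apart. The exon length joins the exons of all annotated transcripts of a gene, and the order and its gaps rest on that choice. It is 25228 bases for Cacna1e and 12416 for Cacna2d1, whose longest transcripts have 14921 and 7436. For Scn2b both lengths are 4656. An order by longest transcript was not made.

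**Figure D1:**
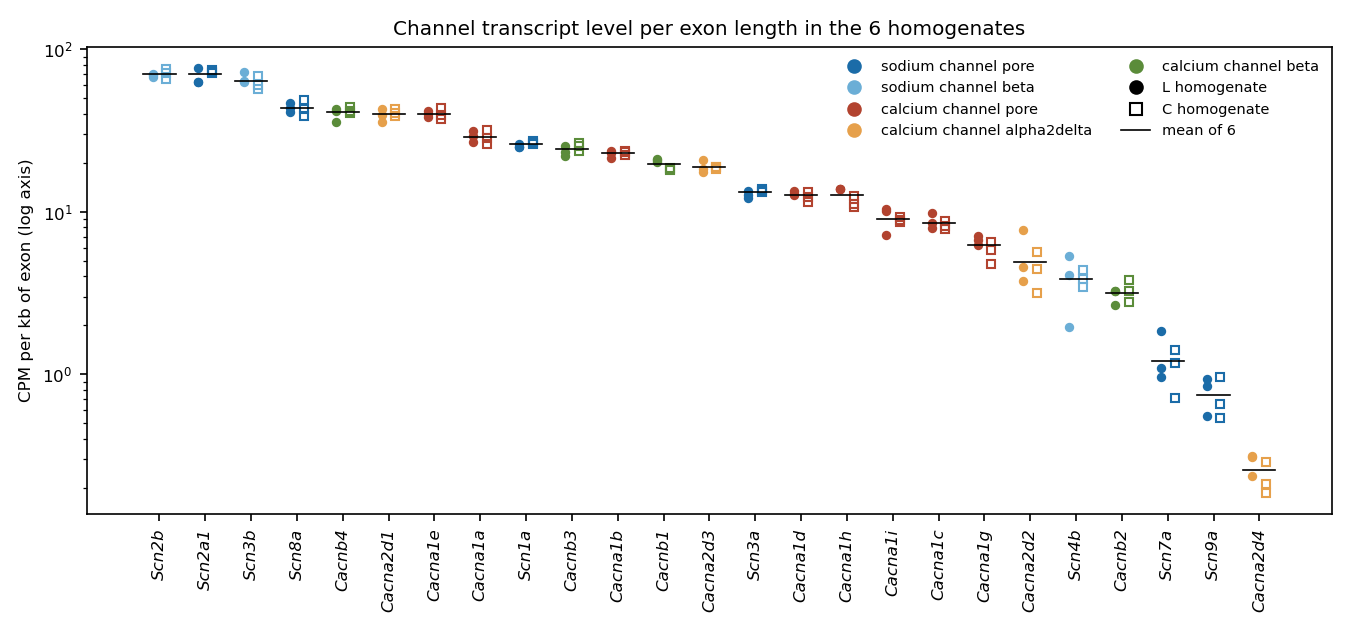
CPM per kb of exon (log axis) of 25 tested members in the 6 homogenates, L filled and C open, with the mean of 6 as a bar. Scn2b, Scn2a1 and Scn3b lead at 63.9 to 70.0 CPM per kb, and L and C points of abundant members lie close together.

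The first question is which channel RNAs the synapse fraction holds relative to the whole tissue. On day 6 the summed level of all members was 15121 CPM in SYN L and 15462 CPM in SYN C, and 6121 to 6747 CPM in the 6 homogenates. Sodium channel pores summed to 6230 (L) and 6447 (C) CPM in SYN day 6 and to 1927 to 2196 CPM in HOM. Alpha2delta genes summed to 2405 and 2426 CPM in SYN day 6 and to 662 to 755 CPM in HOM. Calcium channel beta genes went the other way, with 235 and 208 CPM in SYN day 6 and 559 to 622 CPM in HOM. The 2 SYN day 6 libraries lay outside the homogenate range in all 5 classes.

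**Figure D2:**
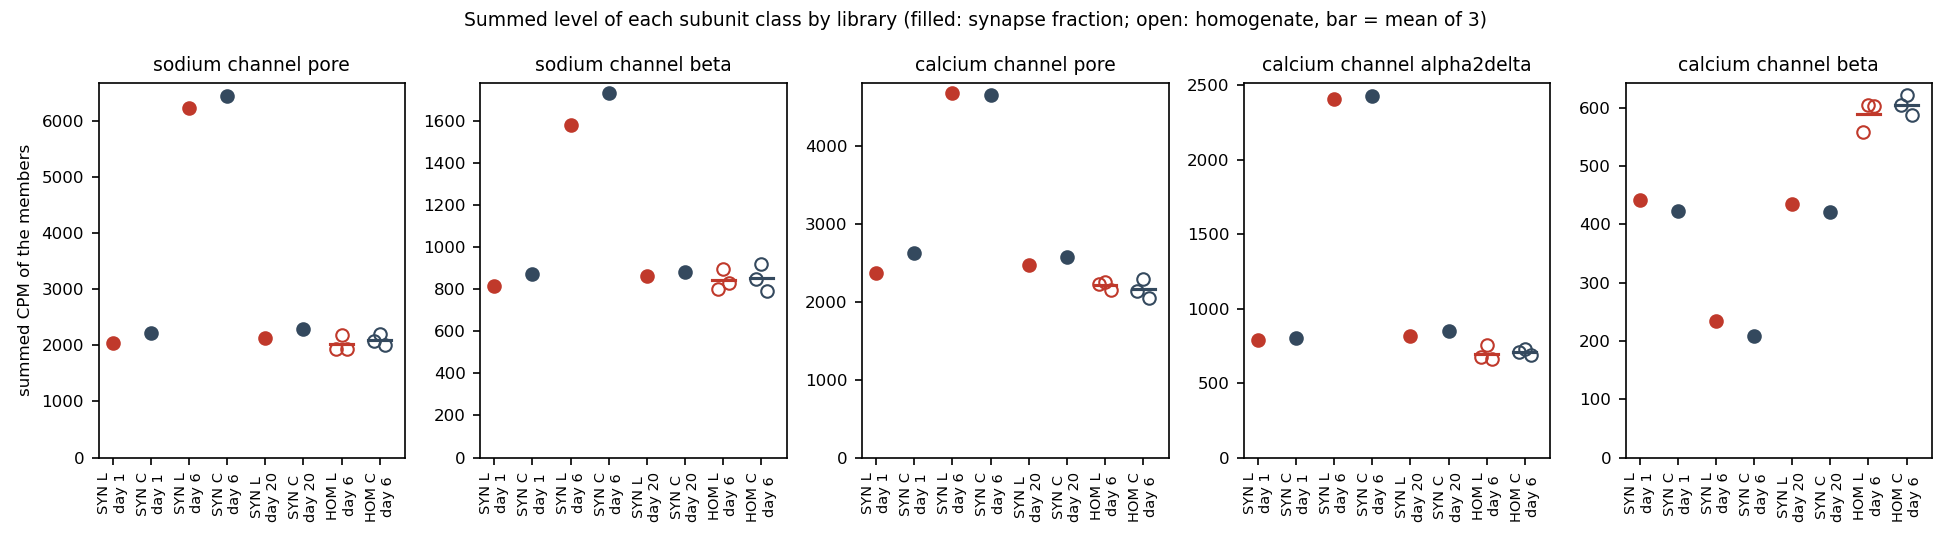
Summed CPM of each subunit class in every library, SYN filled and HOM open with the mean of 3 as a bar, L red and C dark blue, each axis starting at 0. The 2 SYN day 6 libraries are above every other library in 4 classes and below every other library for the calcium channel beta genes (235 and 208 CPM).

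Of the 27 members tested, 21 were higher in SYN day 6 than in HOM and 2 lower, at an adjusted p under 0.05 (edgeR quasi-likelihood test). Of all 13766 genes tested, 28.0% were higher and 31.3% lower. The median log2 difference was 1.63 over the members and -0.135 over all genes. By class, 6 of 7 sodium channel pores, 4 of 4 sodium channel betas, 8 of 8 calcium channel pores and 3 of 4 alpha2delta genes were higher, with medians of 2.23, 1.59, 1.46 and 2.30. Of the calcium channel betas none was higher, 2 were lower and 2 did not pass, with a median of -0.541.

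Among sodium channel pores, Scn2a1 had 843 (L) and 915 (C) CPM in SYN on day 1, 3142 and 3247 on day 6 and 848 and 942 on day 20, against 799 to 972 CPM (median 911) in HOM. The day 6 pair was far above all other libraries, which overlapped each other, and the difference from HOM was 2.58 ± 0.08 (log2, SE), a 5.98-fold higher level after TMM (edgeR adjusted p = 1.03e-11) and 3.58-fold with library totals. That scaling, which uses CPM as printed, shifted the SYN day 6 minus HOM differences of the 27 tested members by -0.76 to -0.731. Scn8a had 799 and 872 CPM in SYN on day 1, 1901 and 1969 on day 6 and 847 and 882 on day 20, against 612 to 765 CPM (median 678) in HOM. Its SYN values exceeded every homogenate on all 3 days, with a day 6 difference of 2.23 ± 0.09. Scn1a had 260.4 and 271 CPM in SYN on day 1, 797 and 846 on day 6 and 256 and 294 on day 20, against 278 to 306 CPM (median 291) in HOM, so that the day 6 pair alone lay above HOM (2.24 ± 0.07). Scn7a, at 36.2 and 58.8 CPM in SYN day 6 and 5.23 to 13.5 CPM in HOM, had the highest difference of the members at 3.16 ± 0.27. Scn3a, the pore most used before birth, differed by 1.70 ± 0.07. Scn9a did not pass, at 0.22 ± 0.32.

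Sodium channel betas were also raised on day 6. Scn2b, whose product is bound to the pore by a disulfide bridge, had 303 and 318 CPM in SYN on day 1, 715 and 820.0 on day 6 and 294 and 329 on day 20, against 305 to 352 CPM (median 326) in HOM. Only the day 6 pair of Scn2b lay above all 6 homogenates. The log2 difference of SYN day 6 from HOM was 1.97 ± 0.08 for Scn2b, 1.63 ± 0.10 for Scn3b and 1.54 ± 0.25 for Scn4b. Scn4b is a low gene, with 32.1 and 34.4 CPM in SYN day 6 and 9.68 to 26.5 CPM in HOM.

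Among calcium channel pores the R-type gene led. Cacna1e had 926 and 1022 CPM in SYN on day 1, 2728 and 2856 on day 6 and 957 and 978 on day 20, against 941 to 1091 CPM (median 1002) in HOM, a day 6 difference of 2.21 ± 0.08 (edgeR adjusted p = 3.61e-11). It made up 58.4 and 61.4% of the calcium pore counts in SYN day 6 and 44.7 to 47.7% in HOM. Cacna1c, an L-type pore (a channel class, unrelated to arm L), differed by 1.81 ± 0.09, Cacna1b by 1.73 ± 0.07 and Cacna1a by 1.52 ± 0.10. Cacna1a, on which transmitter release at most central synapses depends, had 587 and 552 CPM in SYN day 6, above the 297 to 363 CPM of HOM. The T-type pores followed with 1.41 ± 0.11 for Cacna1i, 0.93 ± 0.12 for Cacna1g and 0.59 ± 0.11 for Cacna1h, then Cacna1d, the other neuronal L-type pore, with 0.55 ± 0.09. In unscaled CPM Cacna1h (118 and 104 in SYN day 6, 104 to 135 in HOM), Cacna1d (156 and 125, against 145 to 170.0) and Cacna1g (83.2 and 60.8, against 48.3 to 72.0) overlapped HOM. With library totals in place of TMM the differences were -0.15 for Cacna1h (edgeR adjusted p = 0.203) and -0.19 for Cacna1d (adjusted p = 0.0805), so their direction rests on the scaling, and Cacna1g lost its call at 0.19 (adjusted p = 0.218).

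Alpha2delta subunits carry pores to the surface, and Cacna2d1 encodes a binding site of gabapentin. Cacna2d1 had 506 and 508 CPM in SYN on day 1, 1805 and 1801 on day 6 and 538 and 542 on day 20, against 446 to 534 CPM (median 495) in HOM. The day 6 pair was above all others and differed from HOM by 2.59 ± 0.08 (edgeR adjusted p = 9.46e-12). Cacna2d3 differed by 2.35 ± 0.08 and Cacna2d2 by 2.25 ± 0.23, with 96.1 and 122 CPM in SYN day 6 and 25 to 61.2 CPM in HOM for Cacna2d2. Cacna2d4, known from the retina, did not pass (0.71 ± 0.45).

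The cytoplasmic calcium channel betas moved apart from the pores they bind. Cacnb4 had 208 and 183 CPM in SYN on day 1, 106 and 108 on day 6 and 198 and 197 on day 20, against 318 to 396 CPM (median 376) in HOM. All 6 SYN values were below all homogenates, and the day 6 difference was -1.05 ± 0.10, a level 0.484 times that of HOM after TMM (edgeR adjusted p = 1.16e-06) and 0.29 times with library totals. Cacnb1 had 95.8 and 92.5 CPM in SYN on day 1, 27.2 and 17.4 on day 6 and 92.3 and 88.1 on day 20, against 82.0 to 96.2 CPM (median 87.3) in HOM. Only its day 6 pair left the homogenate range, with a difference of -1.27 ± 0.11. Cacnb3 (0.20 ± 0.09, adjusted p = 0.0644) and Cacnb2 (-0.03 ± 0.18) did not pass, and with library totals all 4 betas were lower. The ratio of summed calcium pore to beta counts, which no scaling touches, was 19.9 and 22.3 in SYN day 6, 5.36 to 6.2 in SYN days 1 and 20 and 3.49 to 3.98 in HOM. The ratio of Scn2a1 to Cacnb4 counts was 29.6 and 30.1 in SYN day 6, 4.06 to 5.01 in SYN days 1 and 20 and 2.10 to 2.59 in HOM.

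With library totals in place of TMM, the median of all genes shifted to -0.875, and 23.8% of the genes called were higher, against 47.2% with TMM. Of all 13766 genes tested, 10055 were then called, 2394 of them higher. Of the 27 members tested, 17 were then higher and 4 lower. Relative to that shifted median, Cacna1h stood at 0.73 and Cacna1d at 0.69.

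**Figure D3:**
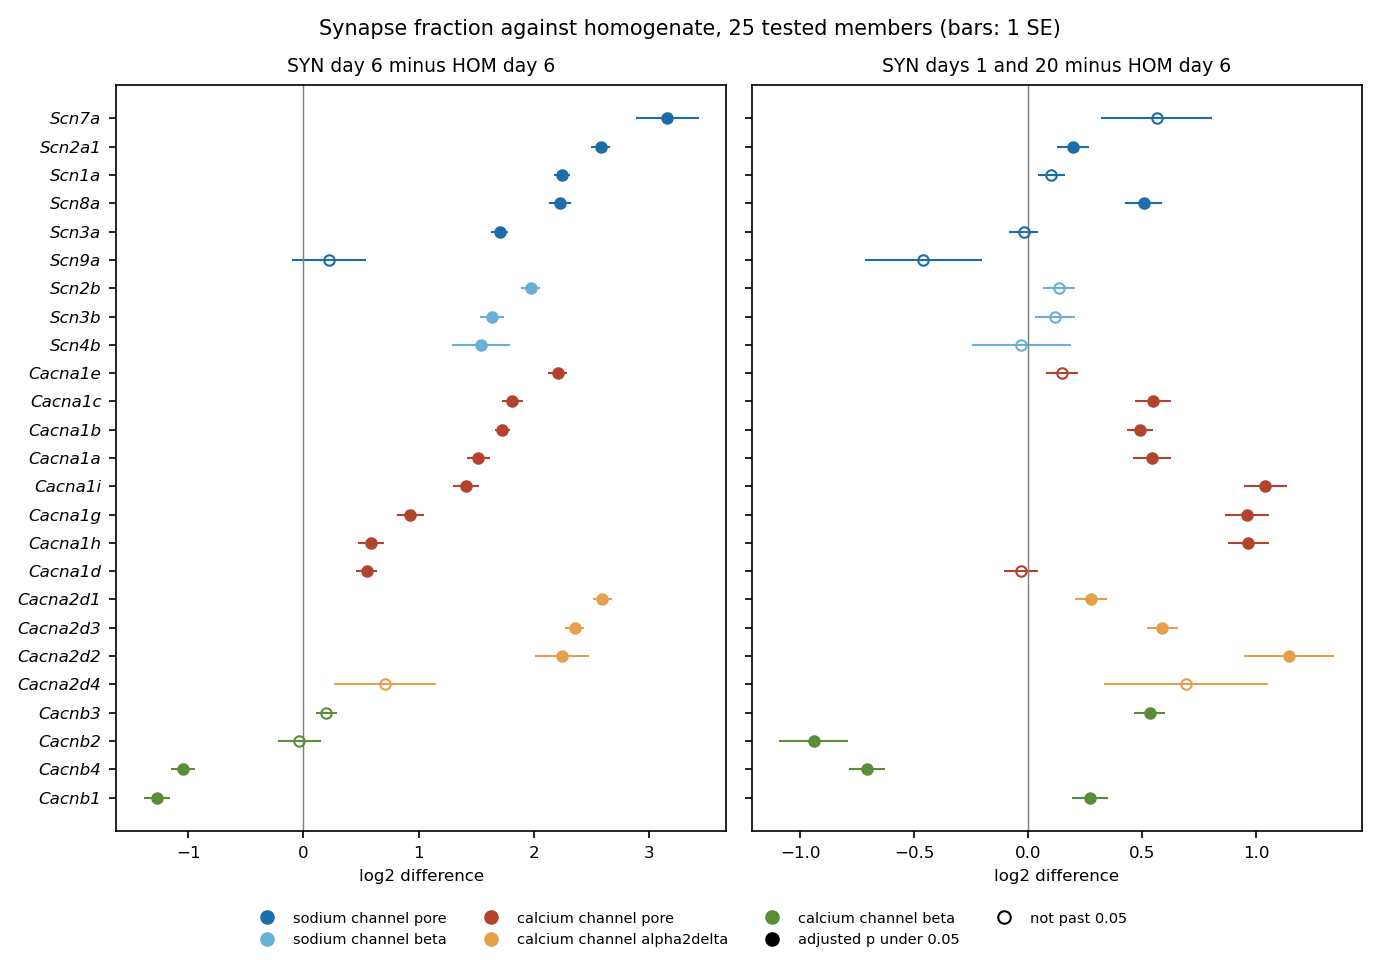
Log2 difference of 25 tested members, SYN day 6 minus HOM (left) and SYN days 1 and 20 minus HOM (right), with bars of 1 SE, filled where the adjusted p is under 0.05. On the left, points run from -1.27 for Cacnb1 to 3.16 for Scn7a. On the right, on a narrower axis, Cacna2d2 (1.14) and the 3 T-type pores (0.96 to 1.04) lead.

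On days 1 and 20 the fraction differed less from the homogenates and in another order. Of the 27 members 14 were higher than in HOM and 2 lower, when 24.2% of all genes were higher and 21.4% lower. The median was 0.491 over the members and -0.0335 over all genes. These tests use the same 6 homogenates as the day 6 comparison, which were all taken on day 6. T-type pores were among the highest. Cacna1h had 196 (L) and 224 (C) CPM in SYN on day 1 and 210.2 and 199.8 on day 20, against 104 to 135 CPM (median 128) in HOM. Cacna1i had 149 and 165 CPM on day 1 and 149.8 and 174 on day 20, against 71.0 to 102 CPM (median 89.9). Cacna1g had 101 and 106 CPM on day 1 and 102 and 113 on day 20, against 48.3 to 72.0 CPM (median 64.9). For all 3 genes every day 1 and day 20 library was above every homogenate, and the log2 differences were 0.97 ± 0.09 for Cacna1h, 1.04 ± 0.09 for Cacna1i and 0.96 ± 0.09 for Cacna1g (edgeR adjusted p = 1.37e-06, 1.14e-06 and 2.73e-06).

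Cacna2d2 was the highest member in this comparison, at 73.5 and 83.3 CPM on day 1 and 62.3 and 76.6 on day 20, against 25 to 61.2 CPM in HOM (1.14 ± 0.20). Cacna2d3 (0.59 ± 0.07), Cacna1c (0.55 ± 0.08), Cacna1a (0.54 ± 0.08), Cacnb3 (0.53 ± 0.07), Scn8a (0.51 ± 0.08) and Cacna1b (0.49 ± 0.06) also rose. Several members that were high on day 6 did not pass here: Scn1a (0.10 ± 0.06), Scn3a (-0.02 ± 0.06), Cacna1e (0.15 ± 0.07) and Scn2b (0.14 ± 0.07). Cacnb2 (-0.94 ± 0.15) and Cacnb4 (-0.71 ± 0.08) fell, and Cacnb1 was 0.27 ± 0.08. The call on Scn2a1 (0.20 ± 0.07, adjusted p = 0.0378) was lost without any 1 of the 4 SYN libraries of days 1 and 20, or of replicates 1 and 3 of HOM L and HOM C (0.18 to 0.21), and with library totals (-0.0076). Cacnb1 lost its call without the SYN C library of day 1 (0.22) or day 20 (0.24) and, like Cacna2d1 (0.28 ± 0.07), with library totals (0.06 for Cacnb1 and 0.07 for Cacna2d1). That scaling gave 11 members higher and 5 lower, a median of all genes of -0.241, and 33.9% of called genes higher against 53.1% with TMM. Of all 13766 genes tested, 7008 were called with library totals, 2375 of them higher. Scn3a then passed downwards, at -0.22 (edgeR adjusted p = 0.00729).

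Within the fraction, 19 of 27 members were higher on day 6 than on days 1 and 20 and 4 were lower, when 22.6% of all genes were higher and 22.5% lower. Scn2a1 (2.38 ± 0.09), Cacna2d1 (2.32 ± 0.09), Scn1a (2.14 ± 0.08) and Cacna1e (2.06 ± 0.09) rose most after Scn7a (2.59 ± 0.30). Cacnb1 (-1.54 ± 0.12), Cacna1h (-0.38 ± 0.12), Cacnb4 (-0.34 ± 0.11) and Cacnb3 (-0.33 ± 0.09) fell, and Cacna1g was at -0.03 ± 0.13. Small differences rested on single libraries: Cacna1h lost its call without SYN C of day 1 (-0.27), SYN L of day 6 (-0.36) or SYN C of day 20 (-0.37), and Cacnb4 without SYN L of day 1 (-0.29) or day 6 (-0.28). Without SYN C of day 6, Cacnb3 (-0.30) and Cacna2d2 (0.82, against 1.10 ± 0.26 with it) lost theirs, and Cacna1i (0.37 ± 0.13) lost its call without SYN L of any day (0.23 to 0.31). With library totals Cacna1i turned to -0.16 (edgeR adjusted p = 0.358), and Cacna2d2 (0.56, adjusted p = 0.085), Cacnb2 (0.38, adjusted p = 0.110) and Cacna1d (0.05, adjusted p = 0.671) lost their calls. Cacna1g gained a call downwards under that scaling, at -0.56 (edgeR adjusted p = 0.00438). The ratio of Cacna1h to Cacna1e counts was 0.0433 and 0.0363 on day 6, and 0.204 to 0.220 on days 1 and 20. With library totals 14 members were higher and 5 lower, the median of all genes was -0.558, and 20.6% of called genes were higher against 50.1% with TMM. Of all 13766 genes tested, 8228 were called with library totals, 1694 of them higher. Between day 20 and day 1, no member passed and 0.0% of all genes did. At an unadjusted p under 0.05 there were 0 members and 34 genes (0.247%) in edgeR, and DESeq2 called 0 genes. The estimates for abundant members were near 0, such as 0.02 ± 0.11 for Scn2a1 and -0.02 ± 0.11 for Cacna1e.

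The calcium channel betas, the class with no member higher in SYN day 6, encode cytoplasmic proteins, and the deposited cellular component annotation was set beside the differences. Of 3028 tested genes annotated as an integral component of membrane, 68.1% were higher in SYN day 6 than in HOM and 7.63% lower, with a median of 1.34. Of the 10050 other annotated genes 16.3% were higher and 38.8% lower, with a median of -0.339. Among members with the term 15 of 17 were higher (median 1.72), and among those without it 6 of 10 were higher and 2 lower (median 1.17). The annotation is incomplete for channels, since the pores Scn1a, Scn2a1, Scn3a, Scn7a, Cacna1g and Cacna1i lack the term, and these are the 6 that were higher. The 4 Cacnb genes are the rest of the 10. On days 1 and 20 the shares higher were 49.3% of annotated and 17% of other genes. With library totals, 52.6% of annotated and 7% of other genes were higher on day 6. The part of membrane annotation in the members' differences was not tested. Over all genes, medians by bin of the longest transcript ran from -0.0481 (under 2 kb) to -0.209 (over 10 kb). Of the 27 members 19 were above the upper quartile of their own length bin, and the part of length in the members' differences was not tested.

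**Figure D4:**
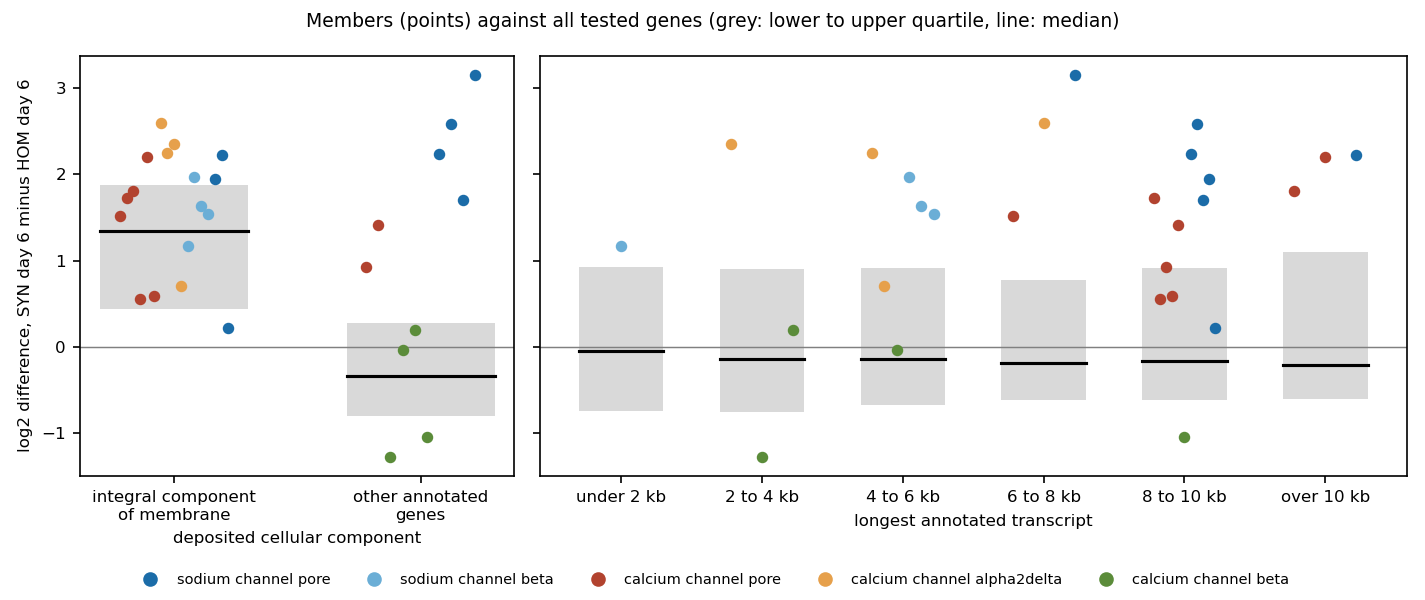
Log2 difference, SYN day 6 minus HOM, of each tested member (points by class) over the lower to upper quartile (grey) and median (line) of all tested genes, by deposited annotation (left) and by length of the longest transcript (right). The median is 1.34 for annotated membrane genes and -0.339 for the others, while the medians by length stay between -0.0481 and -0.209.

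Partners of the channels did not all follow them. The gamma subunits and TARPs, which cross the membrane and in part serve AMPA receptors, were higher in 6 of 6 tested genes in SYN day 6 (median 1.57), with Cacng3 at 1.75 ± 0.11 and Cacng8 at 1.71 ± 0.11. With library totals 4 of the 6 were higher and none lower. Of 17 axon initial segment and sodium channel partners 10 were higher and 5 lower, led by the adhesion proteins Cntn1 (2.62 ± 0.07) and Cntnap1 (2.05 ± 0.08), the phosphatase Ptprz1 (2.29 ± 0.08) and neurofascin, Nfasc (1.98 ± 0.10). Library totals turned that split to 5 higher and 6 lower. Of 15 active zone partners 4 were higher and 5 lower, including the calcium sensor Syt1 (2.46 ± 0.06) upwards, and the priming factor Unc13a (-1.11 ± 0.11) and the fusion protein Snap25 (-0.69 ± 0.11) downwards. With library totals 2 were higher and 12 lower. The sodium leak channel Nalcn, a pore related to both families, was at 2.48 ± 0.07, while its partners Unc80 (-0.46 ± 0.08), Unc79 (-0.01 ± 0.09) and Fam155a (-0.20 ± 0.18) were not higher. With library totals 1 of these 4 genes was higher and 3 lower. Of 10 intracellular calcium channel and store-operated entry genes 6 were higher and 3 lower, with Stim1 at 1.9 ± 0.10, Stim2 at 2.04 ± 0.14, Ryr3 at -0.84 ± 0.13 and Itpr1 at 0.53 ± 0.08. With library totals 2 were higher and 6 lower.

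Cell type markers moved with the fraction as well. Oligodendrocyte and precursor markers were higher in SYN day 6 than in HOM in 6 of 6 genes (3145 and 3731 CPM summed, against 1871 to 3055), astrocyte markers in 5 of 5 (2758 and 3022 CPM, against 1417 to 1592) and microglia markers in 4 of 4 (413 and 512 CPM, against 91.5 to 126). With library totals 5 of 6, 5 of 5 and 4 of 4 were higher. In SYN days 1 and 20 the same lists summed to 9625 to 11330, 2760 to 2874 and 220.3 to 253 CPM. Excitatory neuron markers summed to 4279 to 4864 CPM in SYN day 6, 5138 to 6298 in SYN days 1 and 20 and 3902 to 4996 in HOM, and GABA neuron markers to 458 to 481, 582 to 617 and 590.4 to 812 CPM. Endothelial and mural cell markers summed to 57.8 and 90.6 CPM in SYN day 6, 209.5 to 307 CPM in SYN days 1 and 20 and 187 to 223 CPM in HOM. By gene in SYN day 6, 2 of 5 excitatory markers were higher and 2 lower. Of 7 GABA neuron markers 3 were higher and 3 lower, and of 6 endothelial and mural markers 1 was higher and 4 lower. With library totals these counts were 1 and 3, 3 and 4, and 0 and 5. Choroid plexus markers were higher in 4 of 5 genes in SYN day 6 (2984 and 3454 CPM summed, or 2 of 5 higher and 1 lower with library totals) and in 4 of 5 in SYN days 1 and 20 (4417 to 5612 CPM), against 1336 to 3340 CPM in HOM. Pituitary markers were higher in 2 of 3 genes in SYN days 1 and 20 (53.0 to 571 CPM) and in 0 of 3 in SYN day 6 (8.85 and 11.8 CPM), against 1.01 to 78.9 CPM in HOM. The defining markers of both neuron lists and of the oligodendrocyte and astrocyte lists were above 0 in every library. The part of these cell types in the members' differences was not tested.

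The other question is whether L differed from C. In the day 6 homogenates no member passed, and 0.0% of 13647 genes did (smallest adjusted p in edgeR 0.467). DESeq2 called 11 genes and no member. At an unadjusted p under 0.05 there were 3 of 27 members and 8.92% of all genes. Cacna1h had 134.6, 134.1 and 134.9 CPM in HOM L and 108, 123 and 104 CPM in HOM C, all L above all C, for a difference of 0.28 ± 0.09 (log2, SE, edgeR adjusted p = 0.506). Cacnb1 had 96.2, 91.0 and 94.8 CPM in HOM L and 83.7, 82.0 and 82.9 CPM in HOM C, again without overlap (0.19 ± 0.07, adjusted p = 0.515). These 2 were named for their small p, and neither is a call. For abundant members the intervals bound the difference: -0.37 to 0.17 for Scn2a1, -0.28 to 0.31 for Scn8a, -0.25 to 0.25 for Cacna1e and -0.31 to 0.22 for Cacna2d1 (95%, log2). They use the residual degrees of freedom alone and are wider than the test's own. Over the members the median was 0.0184, with 16 above 0 and 11 below. Choroid plexus markers lay above 0 in L in 5 of 5 genes (median 0.502), none past the test. Microglia (0 of 4 genes above 0, median -0.279), endothelial and mural (1 of 6, -0.132) and pituitary (0 of 2, -5.55) markers went the other way, also none past it. Pituitary markers summed to 1.01 to 1.10 CPM in HOM L and 2.84 to 78.9 CPM in HOM C.

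In the synapse fraction, with the 3 days as blocks, no member passed and 0.0% of 13363 genes did (smallest adjusted p in edgeR 0.910, and 0 genes in DESeq2). At an unadjusted p under 0.05 there were 5 members in edgeR and 7 in DESeq2, and 1.7% of all genes in edgeR. Members lay mostly below 0, with 22 of 27 below it and a median of -0.0941, or 18 of 27 and -0.0389 with library totals. Library totals also moved the median of all genes, from -0.0147 to 0.0394. Under either scaling 21 of 27 members lay below its median of all genes. After TMM 47.4% of all genes were above 0, and genes annotated as an integral component of membrane had a median of -0.0845. Scn2a1 had 843, 3142 and 848 CPM in SYN L and 915, 3247 and 942 CPM in SYN C on days 1, 6 and 20, L below C on each day (-0.16 ± 0.06). Scn2b (-0.20 ± 0.07), Scn1a (-0.17 ± 0.06), Cacna2d2 (-0.33 ± 0.10) and Scn7a (-0.58 ± 0.19) were likewise lower in L on all 3 days. Cacna2d2 had 73.5, 96.1 and 62.3 CPM in SYN L and 83.3, 122 and 76.6 CPM in SYN C. All 5 had an adjusted p of 0.910 (edgeR). Their 95% intervals held 0, such as -0.41 to 0.08 for Scn2a1 and -0.75 to 0.09 for Cacna2d2. These intervals are wider than the test's own, so holding 0 does not contradict the unadjusted p under 0.05. Markers of oligodendrocytes (0 of 6 genes above 0), astrocytes (0 of 5) and choroid plexus (0 of 5) were also below 0 in L, with medians of -0.155, -0.12 and -0.163, and their part was not tested.

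Within a day there is 1 library per arm and no test. None of 24, 25 and 24 members with a mean of at least 10 CPM was past 2-fold on days 1, 6 and 20, and 0.15%, 6.37% and 0.0537% of all such genes were. On day 1 the log2 ratio of L to C ran from -0.26 for Cacna1a (exact 95% counting interval -0.32 to -0.20) to 0.14 for Cacnb4 (0.06 to 0.22). On day 6 it ran from -0.78 for Scn7a (-0.95 to -0.61) to 0.62 for Cacnb2 (0.40 to 0.85), and on day 20 from -0.69 for Scn7a (-1.07 to -0.34) to 0.39 for Cacnb2 (0.11 to 0.68). These intervals cover counting error only. The difference between the arm effects of SYN and HOM was tested directly, and no member and 0.0% of genes passed (smallest adjusted p in edgeR 0.823, DESeq2 0 genes). At an unadjusted p under 0.05 there were 0 members and 5.18% of all genes. For Cacna1h the difference of arm effects was -0.30, with an interval of -0.65 to 0.06.

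**Figure D5:**
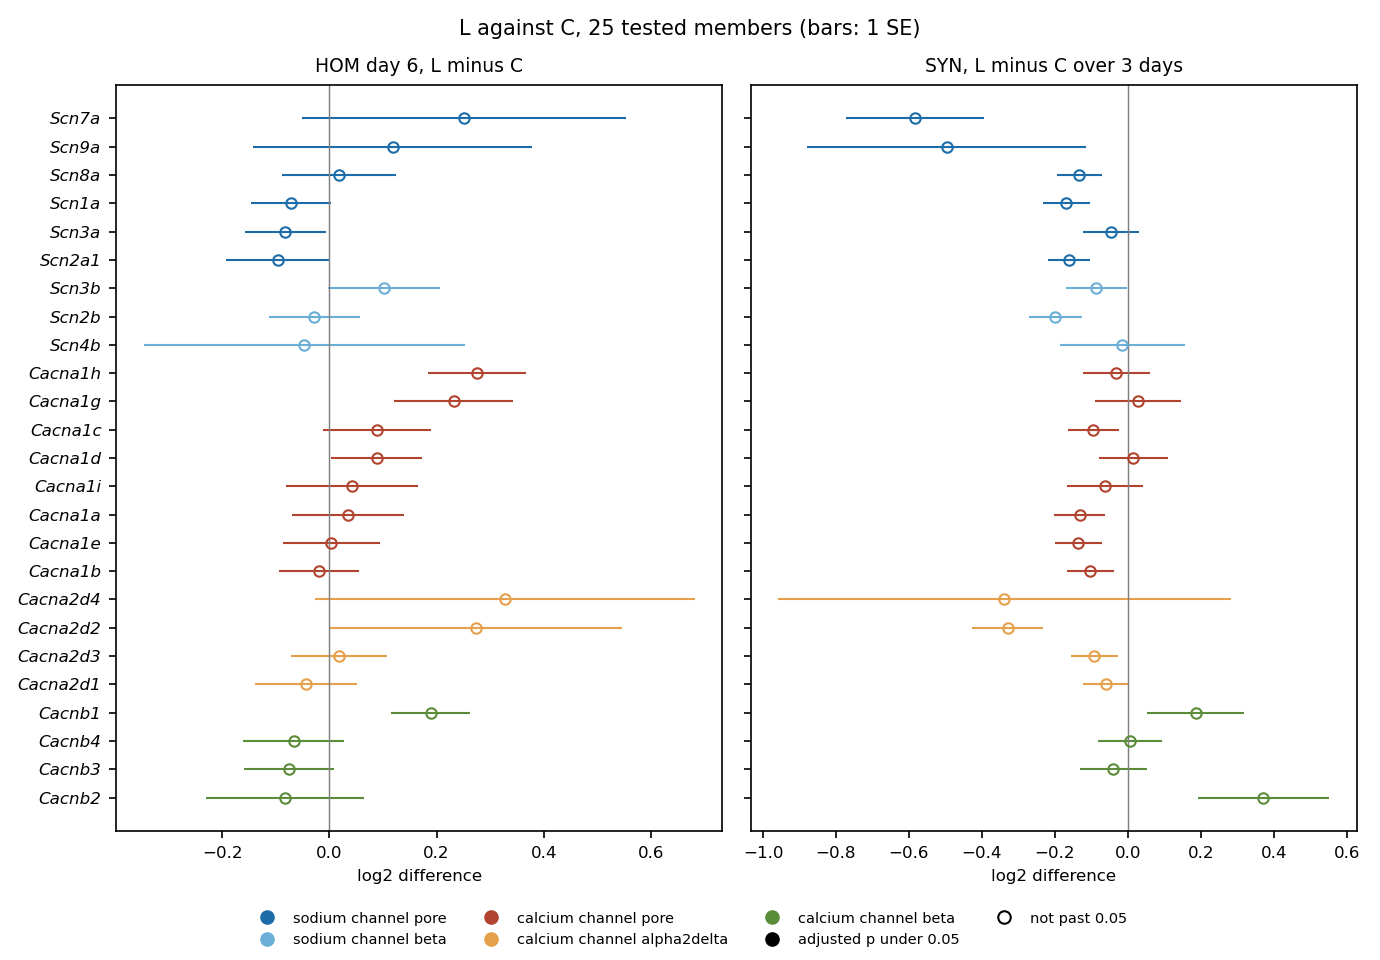
Log2 difference, L minus C, of 25 tested members in the day 6 homogenates (left, 3 libraries per arm) and in the synapse fraction over 3 days (right, 1 library per arm and day), with bars of 1 SE. All symbols are open because no adjusted p is under 0.05, and 20 of 25 points on the right lie below 0 (16 of 25 with library totals). That scaling moves the median of all genes from -0.0147 to 0.0394.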

How the data were processed

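RNA of 12 hippocampal libraries was depleted of ribosomal RNA, fragmented, primed with random hexamers and made into strand-marking (dUTP) libraries, per the labels' protocols. The submitters' processing notes name HTSeq 0.9.1, HISAT2 2.0.4, cutadapt 1.9.3 and edgeR, and the build mm10. The sources used here do not give the annotation, the strand setting or a gene filter, so antisense overlaps are unresolved. The authors deposited raw read counts per gene in 4 tables. Libraries were grouped by title. Columns of days 1 and 20 named T were taken as L, since the L homogenates are described as training. All 12 count columns were used. The values of 2 members and of 1 companion gene are not reported here singly. The members and gene lists were chosen with earlier results of these data known.

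Fits used edgeR 4.0.16 in R 4.3.3 (filterByExpr, TMM, robust quasi-likelihood test, Benjamini-Hochberg over all genes tested, threshold 0.05) and were tested on simulated data. The homogenates were fitted alone, the SYN libraries with day as a block, and the fraction and day contrasts over all 12 libraries with arm as a term, where the L and C library of a day stand as its replicates. SE is the log2 difference over the square root of F. The 95% intervals of these differences use the residual degrees of freedom of each fit alone. The p-values also draw on the spread over all genes, so the intervals are wider than the test implies. Ratios within a day used CPM after TMM, a prior count of 2 and Clopper-Pearson 95% intervals. Exon lengths and gene coordinates are those of GENCODE on GRCm38, matched by gene identifier. Alternatives were DESeq2 1.42.0, other scalings, no filter and leaving out each library. Replicate numbers of the homogenates were not taken as pairs, although the headers of same-numbered L and C homogenates share a number prefix. The labels do not say what that prefix marks. Genes were named by class, past the threshold with the largest differences or the most abundant per length, and otherwise by the smallest p, with up to 4 genes of each companion list by p. Library totals as scaling, and fits of days 1 and 20 without the SYN day 6 libraries, were added after seeing the data.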

Additional observations from a re-analysis of the deposited data

How the results depend on the processing

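Of 1202 alternative values of single members 1168 kept direction and call, 30 lost the call and 4 turned sign. All 4 turned with library totals, a scaling chosen after seeing the data: Cacna1d (-0.19) and Cacna1h (-0.15) in SYN day 6 minus HOM, Scn2a1 (-0.0076) in SYN days 1 and 20 minus HOM, and Cacna1i (-0.16) in SYN day 6 minus days 1 and 20. The construction of that scaling, which leaves the low TMM factors of the SYN day 6 libraries out, shifts all genes. Calls gained by members not followed are outside this count. With library totals they included Cacnb3 (-0.54) and Cacnb2 (-0.77) in SYN day 6 minus HOM. Others were Scn3a (-0.22), Cacna1d (-0.24) and Scn9a (-0.67) in SYN days 1 and 20 minus HOM, and Cacna1g (-0.56) in SYN day 6 minus days 1 and 20. The lost calls that rest on single libraries are given with the results, and the cause was not tested. Leaving out 1 library gave 22 to 24 members called in SYN day 6 minus HOM, 14 to 17 in SYN days 1 and 20 minus HOM, 21 to 24 in SYN day 6 minus days 1 and 20, and 0 in each other test.

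At a floor of 5 CPM in place of 10, 1 member was past 2-fold on day 1 and 1 on day 6 (Scn9a, -1.06, with 52 counts in L and 136 in C). Over all genes 33, 1143 and 19 were past 2-fold at that floor on days 1, 6 and 20, 5, 171 and 2 at a floor of 20 CPM, and 14, 515 and 5 at 10 CPM. Deviations of same-numbered homogenates correlated at 0.00927, 0.254 and 0.179 over 13647 genes, and not every library correlated best with its own number. With the replicate block 0 members and 2 genes were called in the homogenates, and with no replicate block for day 0 members in SYN. The fit of the 8 day 6 libraries in 4 groups has 1 library in each SYN arm. Its scatter comes from the homogenates alone, so its calls for the difference of arm effects are not given. Leaving out 1 library gave 0 to 3 genes in the 3 tests of arm, and leaving out day 6 gave 1 in SYN. Without the SYN day 6 libraries, 19 of 19 member values followed in the other SYN contrasts kept direction and stayed called or not called. Those of day 20 minus day 1 were not called in either fit. Depth limits Scn9a, Scn7a, Scn4b and Cacna2d4, which have under 20 CPM in most libraries, and the SYN arms rest on 1 library per day.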
